A study of Chlamydomonas reinhardtii with 4 samples.

Results

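Chromosome 15 of the unicellular green alga Chlamydomonas reinhardtii carried 583 of the 15521 H3K27ac regions found in the 4 libraries of the series. A region is the union of all peaks, from any of the 4 deposited peak lists, that overlap by at least 1 bp, and the members are all regions placed on the sequence that the lists name as this chromosome. The chromosome was chosen by its peak calls: of all numbered chromosomes it had the highest share of regions called in each dnmt1 library but in no WT library. That share was 2.74% (16 of 583), and the next highest was 2.37% on chromosome 5. It is therefore a description of how the chromosome was chosen and not a result. The libraries are the DNMT1 knockout (dnmt1) and the wild type (WT) of strain CC-5155, of mating type mt+, and the DNMT1 knockout and the wild type of strain CC-5325, of mating type mt–. All cells were vegetative, were grown in acetate medium in continuous light and were precipitated with the same commercial H3K27ac antibody. Each group has 1 library, strain and mating type changed together, and the labels do not say whether a knockout is 1 clone. No difference between groups was therefore tested, and all comparisons describe these libraries.

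H3K27ac is the acetylation of a lysine in the tail of histone H3. It is laid down by histone acetyltransferases, and it is known from plants, animals and fungi for marking promoters and other regulatory DNA in active chromatin. DNMT1 enzymes copy cytosine methylation onto the new DNA strand after replication, and dense methylation of repeats commonly goes with chromatin that lacks active histone marks. Whether a stretch has few or many H3K27ac peaks is thus a coarse map of where a chromosome holds active promoters, within what short reads can be aligned to.

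The peak lists were of similar length. The dnmt1 mt+ list had 14986 peaks and the WT mt+ list 14990, and the dnmt1 mt– list had 15323 and the WT mt– list 15065. On chromosome 15 the counts were 568 in dnmt1 mt+ and 550 in WT mt+, and 573 in dnmt1 mt– and 556 in WT mt–, between 3.67% and 3.79% of each list. The lists hold no read counts, so the depth is unknown, and a region without a peak in a list is one in which the authors' caller reported none. Of the 583 regions, 356 lay beyond the last chromosome 15 gene of the RefSeq gene table at hand (assembly v5.5), so the build of the lists differs from that table and no region was assigned to a gene.

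Chromosome 15 had fewer H3K27ac regions per length than any of the other 16 numbered chromosomes, and it had more long stretches without any peak. Over the 5.82 Mb from its first region to its last there were 100.2 regions per Mb, against 125.7 (chromosome 4) to 153.4 (chromosome 6) on the others. Chromosome 15 was also the lowest in each list taken alone. The dnmt1 mt+ list had 97.6 peaks per Mb and the WT mt+ list 94.7, the dnmt1 mt– list 98.6 and the WT mt– list 95.6, and the lowest value of another chromosome in any list was 120.5. Regions covered 9.67% of the span of chromosome 15, against 11.3% to 14.0% elsewhere. These are ranks of 1 chromosome among 17 and were not tested.

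Gaps of at least 50 kb between neighbouring regions numbered 11 on chromosome 15, against 0 to 2 on each of the other chromosomes and 17 on all 16 of them together. The 11 gaps added up to 1236 kb, or 21.2% of the span, whereas on the other chromosomes such gaps took at most 3.41% (chromosome 14). With these gaps left out of the span, chromosome 15 had 127.2 regions per Mb, above chromosome 4 (125.7) and below the other 15 chromosomes.

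The longest gap ran from 4816490 to 5113385, a length of 296896 bp, and was bounded on both sides by regions with a peak in all 4 libraries. The peak-free stretch there was 296940 bp in dnmt1 mt+ and 296899 bp in WT mt+, and 296910 bp in dnmt1 mt– and 296935 bp in WT mt–. The 4 lists therefore placed its borders within less than 50 bases of each other. No gap on another chromosome was longer than 100871 bp, a value reached on chromosome 1.

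The next gap, from 3851581 to 4088638 (237058 bp), had borders that differed between libraries. Its left border was a weak region missing from the dnmt1 mt+ list alone, and its right border was a region that the dnmt1 lists had and the WT lists lacked. The peak-free stretch was 279780 bp in dnmt1 mt+ and 263506 bp in WT mt+, and 237063 bp in dnmt1 mt– and 263543 bp in WT mt–. The 2 longest gaps together took 9.18% of the span.

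A gap of 107568 bp ran from 4477817 to 4585384, and its right border was one of the most enriched regions of the chromosome. A gap of 93724 bp ran from 2454965 to 2548688 between 2 regions that each lacked a peak in some library, and one of 89421 bp ran from 3510537 to 3599957 between regions shared by all. The remaining 6 measured 53475 to 75182 bp. Of the 11 gaps, 10 lay in the right-hand part of the chromosome, beyond 2366704, and 1 lay near its start. Each of the 11 is peak-free in every list by construction, since regions merge the peaks of all 4 lists. Taken alone, the dnmt1 mt+ list had 12 gaps of this length and the WT mt+ list 13, and the dnmt1 mt– list had 11 and the WT mt– list 12.

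**Figure D1:**
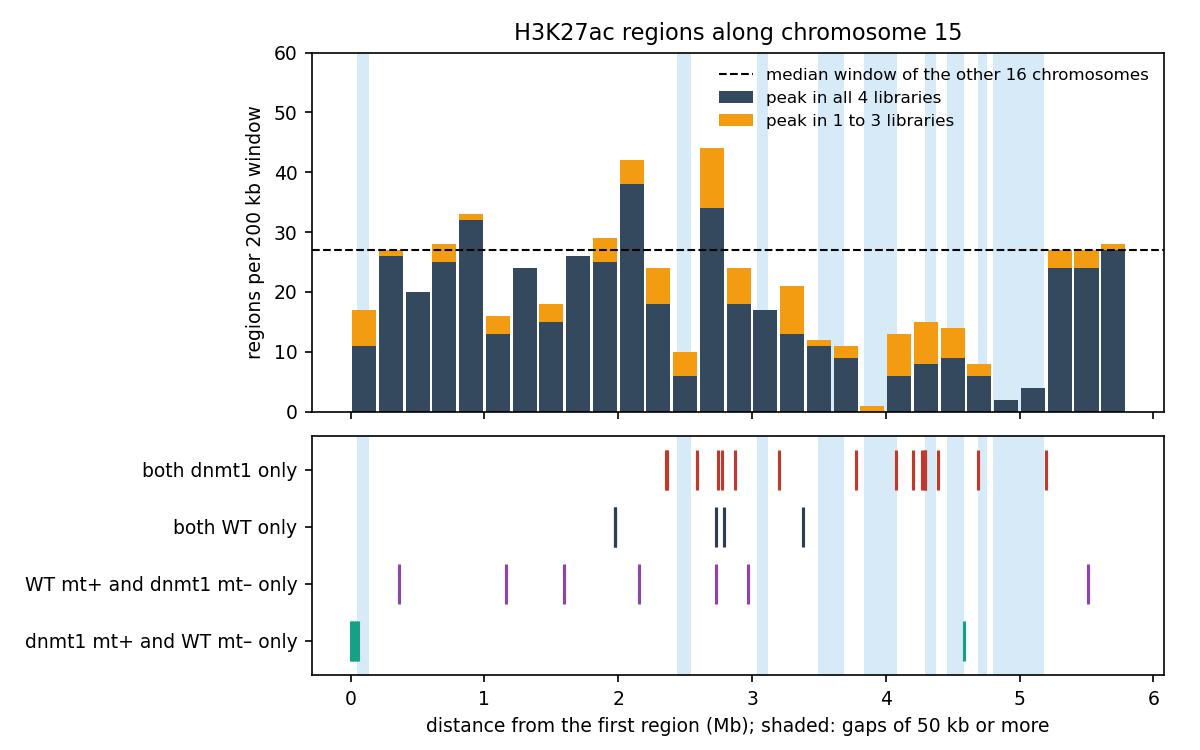
The upper panel gives the number of H3K27ac regions in each of the 29 full 200 kb windows of chromosome 15, tiled from its first region, and splits it into regions with a peak in all 4 libraries and in 1 to 3 libraries. The dashed line is the median window of the other 16 chromosomes (27 regions), the shading marks gaps of 50 kb or more, and the lower panel marks each region found in both dnmt1, in both WT or in a crossed pair of libraries; the windows range from 1 to 44 regions, and all 16 ticks of the top row lie in the middle and right part of the chromosome.

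In windows of 200 kb, tiled from the first region of each chromosome, chromosome 15 had a median of 20 regions per window, against 27 for the 523 windows of the other chromosomes. Its windows were also more uneven. The standard deviation over its 29 windows was 10.6 regions, against 3.90 to 8.66 on the other chromosomes. A total of 7 windows of chromosome 15 had 12 regions or fewer, a bound just below the poorest of the 523 other windows, which had 13. The poorest window, 3809343 to 4009342, held 1 region. The richest window, 2609343 to 2809342, held 44 regions, a number that 8 windows of other chromosomes reached or passed.

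The typical distance between regions of chromosome 15 was like that elsewhere. The median distance between neighbours was 4717 bp, within the range of 4246 to 5682 bp of the other chromosomes. The tails of the distribution were wider on both sides. The closest 10% of neighbours lay within 397 bp, less than on any other chromosome (537 to 889 bp), and the 90th percentile was 18458 bp, more than on any other (12141 to 16004 bp). Distances under 1 kb made up 18.9% of all, a share passed by chromosome 9 (20.4%). Distances of 20 kb or more numbered 50, against 19 to 35 on the others.

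**Figure D2:**
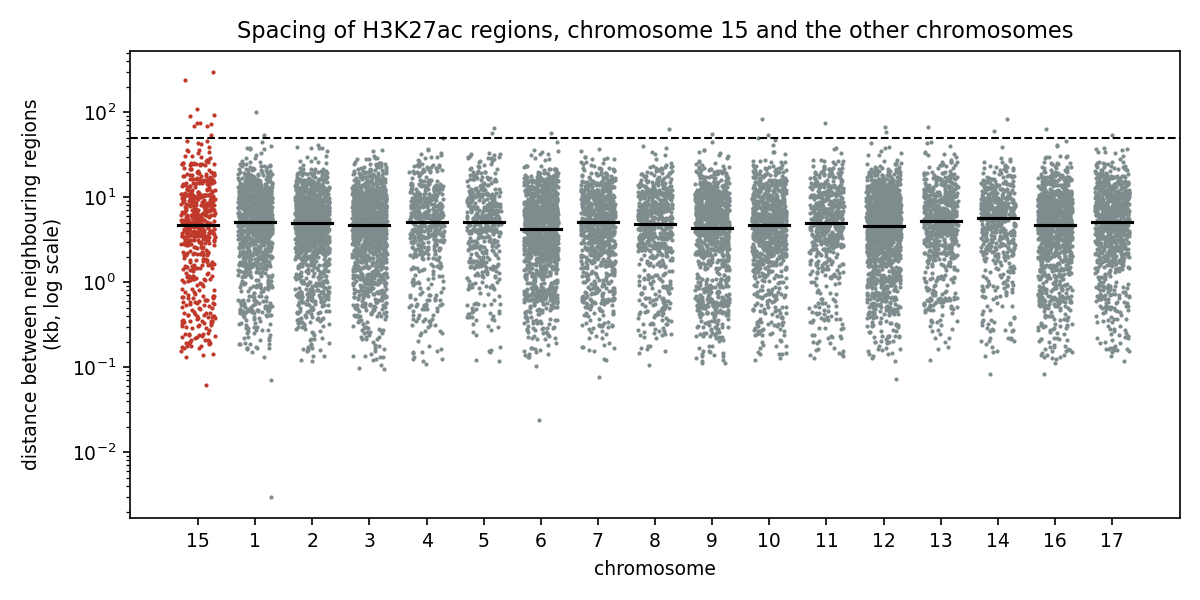
Each point is the distance in kb, on a log scale, between 2 neighbouring H3K27ac regions, with chromosome 15 at the left and the other numbered chromosomes to its right; bars are medians and the dashed line marks 50 kb. The medians are alike (4.72 kb on chromosome 15), while 11 points of chromosome 15 lie above the line and at most 2 of any other chromosome do.

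Peaks of chromosome 15 were also narrower and ranked lower within their lists than those of the other chromosomes. The median of the authors' fold enrichment at the summit was 4.70 in dnmt1 mt+ and 4.94 in WT mt+, and 5.02 in dnmt1 mt– and 4.63 in WT mt–, the lowest of the 17 chromosomes in each list. The other chromosomes had medians of 5.17 to 5.67 in the dnmt1 mt+ list and 5.38 to 5.88 in the WT mt+ list. They had 5.55 to 6.10 in the dnmt1 mt– list and 5.13 to 5.58 in the WT mt– list. Ranked by −log10 q within its own list, the median chromosome 15 peak stood at the 41.4th percentile in dnmt1 mt+ and the 39.6th in WT mt+, and at the 39.6th in dnmt1 mt– and the 39.5th in WT mt–. Median peak width was 725 bp in both mt+ lists, 729 bp in dnmt1 mt– and 740 bp in WT mt–, again the lowest of the 17 chromosomes in each list. Where each library had exactly 1 peak in a region, the 4 summits lay within a median of 67.0 bp on chromosome 15 (461 regions), and within 66.0 to 80.0 bp on the others.

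Strong regions were present in several parts of the chromosome. By the lowest fold enrichment over the 4 libraries, the first was at 2920604 to 2922455, with 8.71 in dnmt1 mt+ and 9.0 in WT mt+, and 10.56 in dnmt1 mt– and 8.85 in WT mt–. Next came 1459923 to 1461515, with 10.24 in dnmt1 mt+ and 8.59 in WT mt+, and 9.24 in dnmt1 mt– and 9.74 in WT mt–. Regions at 5370776 to 5371940, 4585385 to 4586594 and 681891 to 682944 followed, with values between 7.77 and 8.89 in every library. The region at 4585385 borders the 107568 bp gap named above, so a long peak-free stretch ended at a strongly enriched region. The narrowest shared regions were 247 to 278 bp wide, at 1107769, 1396738, 1220870, 1012249 and 5563574, with fold enrichments of 2.26 to 4.11. The last region of the chromosome, at 5826747 to 5827393, had 4.56 in dnmt1 mt+ and 4.95 in WT mt+, and 4.81 in dnmt1 mt– and 5.07 in WT mt–.

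A stretch of very broad acetylation lay to the right of the 93724 bp gap. Of the 24 regions at least 3 kb wide on the numbered chromosomes, 12 were on chromosome 15, all with a peak in all 4 libraries, and the other 12 were spread over 10 chromosomes with at most 2 on any of them. All 6 regions of at least 6 kb were on chromosome 15, and the broadest region elsewhere was 5947 bp, on chromosome 6. The width minimum was chosen after the values were seen.

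These 12 broad regions lay together between 2602414 and 2770369. In that 168 kb stretch regions covered 60.7% of the sequence, against 9.67% of the chromosome as a whole, and it held 18.1% of the total region length of the chromosome. Its 34 regions had a median spacing of 248 bp, and 14 of them contained 2 or more peaks of a library, against 33 on the whole chromosome.

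The broadest region, 2660238 to 2674901, spanned 14664 bp. It was called as 3 peaks in dnmt1 mt+ (the widest 7255 bp) and as 1 peak of 14594 bp in WT mt+, and as 2 peaks in dnmt1 mt– (the widest 7209 bp) and 1 peak of 14599 bp in WT mt–. The second, 2694959 to 2707869 (12911 bp), was called as 3 peaks in dnmt1 mt+ and 3 in WT mt+, and as 6 in dnmt1 mt– and 3 in WT mt–. Then came 2612564 to 2620586 (8023 bp), 2645300 to 2652542 (7243 bp) and 2763919 to 2770369 (6451 bp). The region at 2645300 was called as 5 peaks in dnmt1 mt+ and 2 in WT mt+, and as 1 peak of 7239 bp in dnmt1 mt– and 5 peaks in WT mt–. The division into peaks thus followed genotype in the broadest region and not at 2645300. Of the 12 broad regions, 7 were called as more than 1 peak in dnmt1 mt+ and 6 in WT mt+, and 5 in dnmt1 mt– and 5 in WT mt–. The highest fold enrichment within the 12 regions was 5.13 to 7.84 in dnmt1 mt+ and 5.19 to 7.47 in WT mt+, and 5.65 to 8.03 in dnmt1 mt– and 4.96 to 7.94 in WT mt–. Peaks covered 57.2% of the stretch in dnmt1 mt+ and 57.2% in WT mt+, and 58.4% in dnmt1 mt– and 55.7% in WT mt–.

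**Figure D3:**
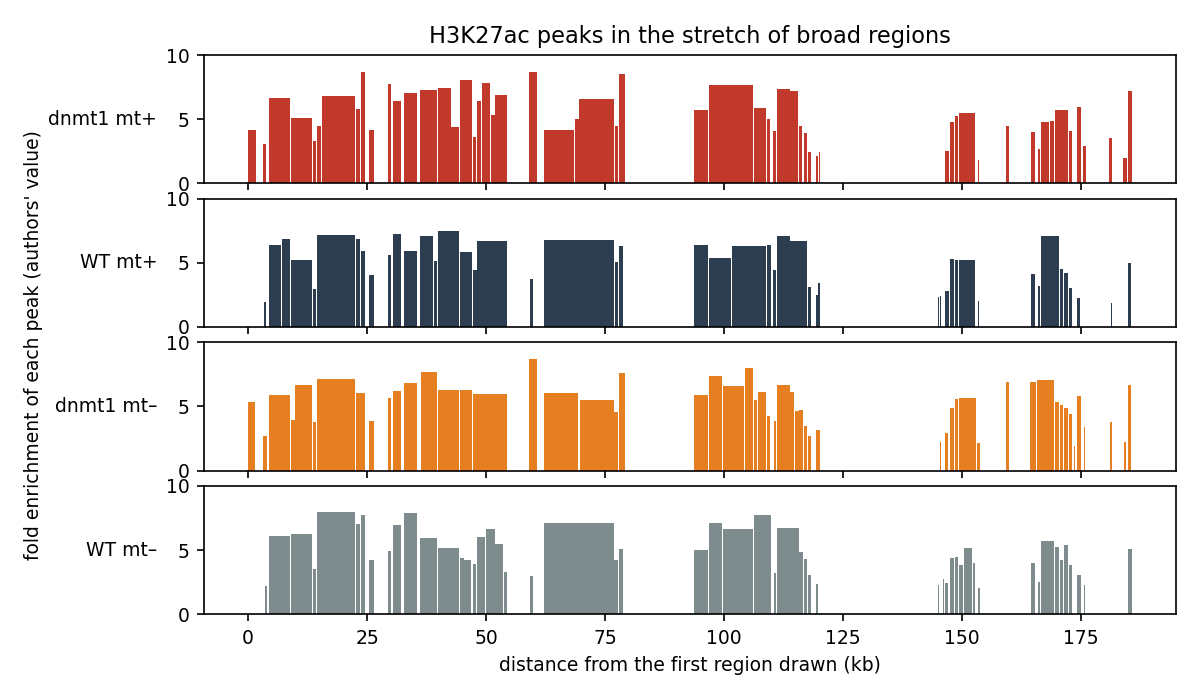
Each bar is a deposited peak, drawn to its width (distance in kb from the first region drawn) and to the height of the authors' fold enrichment, with 1 row per library. Peaks of all widths together cover 55.7% to 58.4% of the stretch in each row. The 14664 bp region is 1 bar in both WT rows, and the 7243 bp region is 1 bar in the dnmt1 mt– row alone.

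The share of regions found in all libraries was lower on chromosome 15 than on any other chromosome. A peak in all 4 libraries was found for 492 of the 583 regions (84.4%, exact 95% Clopper-Pearson interval 81.2 to 87.2, counting error only), against 87.0% on chromosome 6, the next lowest, and up to 96.0% on chromosome 13. Over all regions of the series the share was 92.5%. Chromosome 15 had 28 regions with a peak in 1 library (4.80%, against 2.53% of all regions), 37 with a peak in 2 (6.35%, against 2.83%) and 26 with a peak in 3 (4.46%, against 2.09%). The 16 gained regions that led to the choice of the chromosome are among the 37. With such regions left out of every chromosome, the share found in all 4 libraries was 86.8% on chromosome 15, and the lowest other value was 87.5% on chromosome 6. The 91 regions not shared by all were narrow, with a median of 311 bp against 835 bp for the shared ones.

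The partial regions were unevenly placed. Between the first and the last region gained in both dnmt1 libraries (2366704 to 5210407, bounds set by the data) there were 70.7 regions per Mb, against 127.3 to the left of this stretch and 132.9 to its right. Leaving out the gained regions themselves, 77.8% of the 185 regions of the stretch were shared by all 4 libraries. To its left 90.7% of 300 regions were, and to its right 92.7% of 82. The stretch held 10 of the 11 long gaps, 19 of the 28 single-library regions, and the broad regions. The median fold of its shared regions was 4.40 in dnmt1 mt+ and 4.59 in WT mt+, and 4.71 in dnmt1 mt– and 4.27 in WT mt–. Left of it the medians were 5.13 in dnmt1 mt+ and 5.61 in WT mt+, and 5.47 in dnmt1 mt– and 5.13 in WT mt–. Weaker peaks lie nearer the calling threshold, and the part of this in the lower sharing was not tested.

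The 16 gained regions of chromosome 15 (2.74% of its regions, against 1.07% of all regions in the series) were mostly narrow and of low rank. Their median width was 424 bp, and their median fold enrichment was 2.41 in dnmt1 mt+ and 2.61 in dnmt1 mt–, with no peak in either WT library. The most enriched lay inside the stretch of broad regions, at 2757303 to 2758098, with 4.50 in dnmt1 mt+ and 6.91 in dnmt1 mt–. It was the single gained region of the chromosome that ranked above the median of a list (60.7th percentile in dnmt1 mt–).

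At the left edge of the broad stretch, 1561 bp of gained acetylation at 2598036 to 2599596 had 4.14 in dnmt1 mt+ and 5.38 in dnmt1 mt–. The weak region at 2782041 to 2782712, just past the right edge, had 1.96 in dnmt1 mt+ and 2.22 in dnmt1 mt–. So 3 of the 16 lay within or beside that stretch. A group of 3 followed further right, at 4279079 to 4279608 (3.75 in dnmt1 mt+ and 4.6 in dnmt1 mt–), 4302316 to 4302620 (3.05 and 3.56) and 4302827 to 4303270 (2.41 and 2.43), and the last pair lay 206 bp apart.

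The other gained regions were more scattered. The first 2 along the chromosome, at 2366704 to 2367107 (2.19 in dnmt1 mt+ and 2.53 in dnmt1 mt–) and at 2377286 to 2377556 (2.61 and 2.74), stood far from shared acetylation, with 32063 and 21614 bp to the nearest region in all 4 libraries. Those at 2885250 to 2885563 (2.24 and 2.31), 3213199 to 3213443 (2.76 and 2.29) and 3783633 to 3783905 (3.04 and 4.22) were each at least 102537 bp from another gained region. The region at 4088639 to 4088889 (2.16 and 2.69) bounds the 237058 bp gap, and that at 4209136 to 4209355 (2.41 and 2.87) follows it. The last 3, at 4399182 to 4399704 (1.99 and 1.72), 4697928 to 4698525 (1.78 and 2.03) and 5209873 to 5210407 (1.58 and 1.84), were among the weakest. In these pairs of values the first is fold enrichment in dnmt1 mt+ and the second in dnmt1 mt–.

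The long gaps of chromosome 15 were similar in number in both genotypes, and each gap between merged regions is peak-free in both by construction. Gaps of at least 50 kb numbered 11 with the peaks of both dnmt1 libraries together and 12 with those of both WT libraries together. On the other chromosomes they numbered 17 with the dnmt1 libraries and 31 with the WT libraries. Of the 16 gained regions of chromosome 15, 3 lay inside a WT gap of this length, and 59 of the 144 gained regions of the other chromosomes did. A gained region overlaps no WT peak by definition, so these counts describe only the length of the WT peak-free interval around it. Of lost regions, 0 of 5 on chromosome 15 and 0 of 32 on the others lay inside a dnmt1 gap of this length. Such gaps took 24.1% of the chromosome 15 span in the WT mt+ list and 23.2% in the WT mt– list. On the other chromosomes they took 0.857% to 4.55% in WT mt+ and 1.11% to 4.55% in WT mt–. With gaps of at least 20 kb the counts of gained regions inside them were 8 of 16 and 95 of 144. A median of 4 regions shared by all libraries lay within 50 kb of a gained region, against 11 around a shared region of the chromosome. Around all 91 regions not shared by all the median was 8. Among these it was also 4 for regions in dnmt1 mt+ and WT mt– alone, and 13 for those in WT mt+ and dnmt1 mt– alone.

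Regions lost in both dnmt1 libraries numbered 5 (0.858% of the chromosome, against 0.264% of all regions). They were 256 to 524 bp wide, and all ranked below the median of both WT lists. In the dense left part a pair lay 3048 bp apart, at 1984188 to 1984711 (WT mt+ 3.11, WT mt– 3.82) and at 1987760 to 1988163 (WT mt+ 2.26, WT mt– 2.67). The other 3 lay among the gained regions, at 2743028 to 2743293 (2.30 in WT mt+ and 2.24 in WT mt–), 2801181 to 2801567 (1.99 and 1.56) and 3390639 to 3390894 (2.18 and 1.87). Of these the first is inside the stretch of broad regions.

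**Figure D4:**
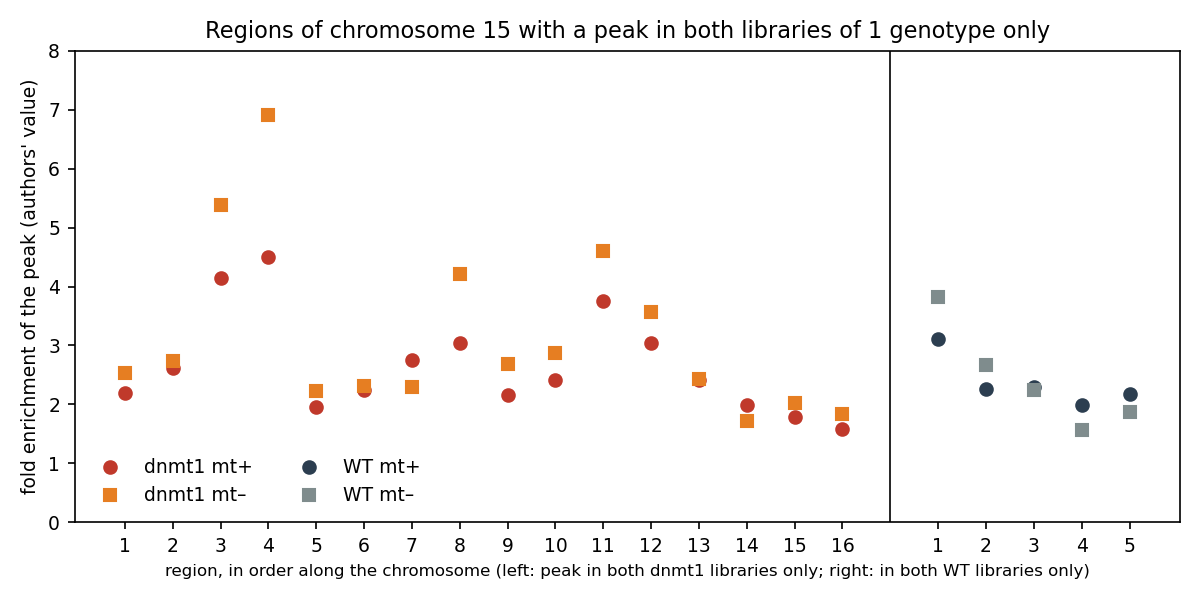
Each point is the authors' fold enrichment of 1 region in 1 library, in order along chromosome 15: at the left the 16 regions with a peak in both dnmt1 libraries alone, at the right the 5 with a peak in both WT libraries alone. Regions 3, 4 and 11 at the left have the highest values (up to 6.91), and the WT regions do not exceed 3.82.

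Among regions found in all 4 libraries, large changes of rank between genotypes were rare, and 2 of the 17 in the series lay on chromosome 15. The measure, chosen after the values were seen, asks for a percentile at least 30 points higher in both dnmt1 lists than in both WT lists. It was met by 2 of the 492 shared regions of chromosome 15 (0.407%) and by 15 of the 13743 shared regions of the other numbered chromosomes (0.109%), with 0.118% over the whole series. The reverse was met by 0 regions on either.

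The region at 2657122 to 2658791, within the stretch of broad regions, reached 8.67-fold enrichment in dnmt1 mt+ and 3.71 in WT mt+, and 8.70 in dnmt1 mt– and 2.97 in WT mt–. Its peak was 1614 bp wide in dnmt1 mt+ and 719 bp in WT mt+, and 1670 bp in dnmt1 mt– and 583 bp in WT mt–. It stood at percentile 95.8 in dnmt1 mt+ and 16.2 in WT mt+, and at percentile 94.3 in dnmt1 mt– and 10.2 in WT mt–. The region at 2772189 to 2773223, just right of that stretch, had 5.95 in dnmt1 mt+ and 2.29 in WT mt+, and 5.78 in dnmt1 mt– and 3.05 in WT mt–. Both regions have a peak in every library and so enter none of the gained counts. These are fold values from 1 library per group, and the differences were not tested.

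Within strain CC-5155, 39 of the 568 dnmt1 mt+ peaks of chromosome 15 overlapped no WT mt+ peak (6.87%), against 2.0% of the whole dnmt1 mt+ list. In the reverse direction 32 of the 550 WT mt+ peaks overlapped no dnmt1 mt+ peak (5.82%, 4.01 to 8.11), against 2.37% of the whole WT mt+ list. The gained peaks include those of the 16 regions by which the chromosome was picked. Without the peaks of regions gained in both strains, 23 of 568 remained (4.05%), against 0.881% of the whole list. Besides the 16, most regions with a dnmt1 mt+ peak and no WT mt+ peak also had a WT mt– peak. They were 12 regions lacking WT mt+ only, 6 with dnmt1 mt+ and WT mt– only, and 1 in dnmt1 mt+ alone. The median fold was 2.26 for the gained peaks and 2.28 for the lost ones.

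Within strain CC-5325, 35 of the 573 dnmt1 mt– peaks had no WT mt– partner (6.11%), against 2.97% of the whole dnmt1 mt– list. These too include the peaks of the 16 regions, and without the peaks of regions gained in both strains 19 of 573 remained (3.32%), against 1.89% of the whole list. Besides the 16, the regions with a dnmt1 mt– peak and no WT mt– peak were of 3 classes. They were 4 lacking WT mt– only, 7 with dnmt1 mt– and WT mt+ only, and 8 in dnmt1 mt– alone. Lost peaks were 21 of 556 (3.78%, 2.35 to 5.72), against 1.39% of the WT mt– list. The gained peaks had a median fold enrichment of 2.44 and reached 6.91, and the lost peaks had a median of 2.44 and reached 5.0. Over both strains, 1 of these gained peaks and 0 of these lost peaks ranked above the median of its list.

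The start of chromosome 15 held a series of evenly spaced regions whose library pattern matched neither genotype nor mating type. In the first 62 kb of the span, 5 regions had a peak in dnmt1 mt+ and in WT mt–, and none in WT mt+ or dnmt1 mt–. They began at 9343, 22190, 35046, 47897 and 60730, and their widths of 1170 to 1211 bp were alike. From summit to summit they were 12834 to 12854 bp apart in dnmt1 mt+ and 12842 to 12861 bp apart in WT mt–. Fold enrichment along the series was 3.09, 2.50, 2.94, 2.69 and 2.64 in dnmt1 mt+, and 2.90, 3.26, 2.91, 3.04 and 3.05 in WT mt–.

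Between them stood 4 regions with a peak in all 4 libraries, at 17503, 30400, 43233 and 56102, with the same period. Their summits were 12846 to 12870 bp apart in dnmt1 mt+ and 12793 to 12882 bp apart in WT mt+, and 12841 to 12862 bp apart in dnmt1 mt– and 12752 to 12933 bp apart in WT mt–. Each followed the summit of the region before it by 8228 to 8269 bp in dnmt1 mt+ and by 8230 to 8337 bp in WT mt–. The 9 regions thus formed 4 full periods of about the same length, with 2 positions in each.

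These shared regions also differed between the same pairs of libraries. Their fold enrichment was 3.22 to 3.71 in dnmt1 mt+ and 4.21 to 5.77 in WT mt+, and 4.54 to 5.89 in dnmt1 mt– and 2.67 to 3.07 in WT mt–. Their peaks were 765 to 775 bp wide in dnmt1 mt+ and 658 to 699 bp in WT mt+, and 664 to 698 bp in dnmt1 mt– and 850 to 922 bp in WT mt–. The libraries with the additional peaks therefore had the lower and wider shared peaks. The median fold enrichment of the whole list differed the same way but less, at 5.46 in dnmt1 mt+ and 5.65 in WT mt+, and 5.83 in dnmt1 mt– and 5.39 in WT mt–.

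In fold enrichment the split continued past the gap of 75182 bp that follows the series. The region at 137123 to 138012 had 3.24 in dnmt1 mt+ and 7.36 in WT mt+, and 4.95 in dnmt1 mt– and 3.0 in WT mt–. The next one, at 141766 to 142980, had 2.63 in dnmt1 mt+ and 5.54 in WT mt+, and 4.54 in dnmt1 mt– and 2.84 in WT mt–. Its peak was 1111 bp wide in dnmt1 mt+ and 404 bp in WT mt+, and 444 bp in dnmt1 mt– and 1215 bp in WT mt–. The summit lay at 142603 in dnmt1 mt+ and 141996 in WT mt+, and at 141995 in dnmt1 mt– and 142614 in WT mt–. These fold values were thus taken at different positions within the region. The peak stood at percentile 20.9 in dnmt1 mt+ and 35 in WT mt+, and at 27.2 in dnmt1 mt– and 30.2 in WT mt–. By rank, dnmt1 was thus the lower in both strains. How many places in the genome the reads of this series could align to is not known from peak lists, and the part of repeated sequence or of the input library in the pattern was not tested.

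**Figure D5:**
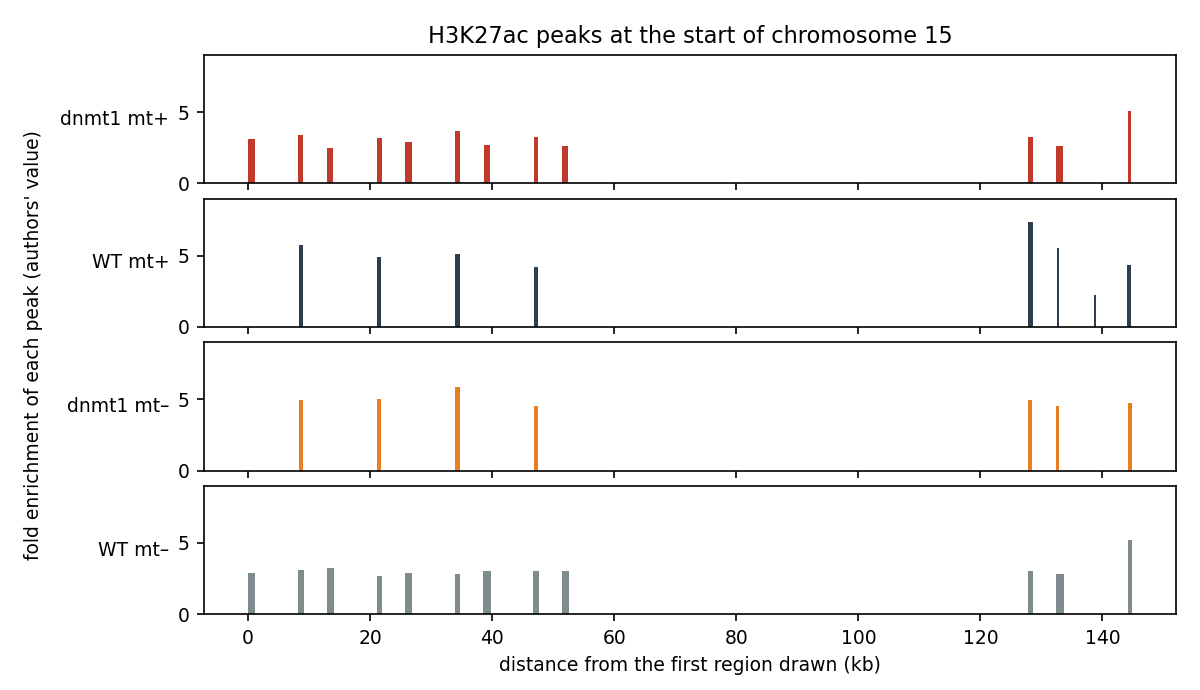
Each bar is a deposited peak near the start of chromosome 15, drawn to its width (distance in kb from the first region) and to the height of the authors' fold enrichment, with 1 row per library. The dnmt1 mt+ and WT mt– rows show 9 peaks in even alternation before the long gap, and the WT mt+ and dnmt1 mt– rows show 4.

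Away from the start, 8 more regions had a peak in a crossed pair of libraries, with fold enrichments of at most 3.16. A single further region, at 4592740 to 4593054, had a peak in dnmt1 mt+ (2.02) and WT mt– (1.91) alone, which brings this pair to 6 regions (1.03% of the chromosome, against 0.122% of all regions). The opposite pair, dnmt1 mt– and WT mt+, had 7 regions (1.20%, against 0.367% of all regions and 0.690% on chromosome 9, the next highest), 245 to 394 bp wide and spread from 371241 to 5518263. Their fold enrichment was 2.06 to 3.16 in dnmt1 mt– and 1.87 to 2.77 in WT mt+. The most enriched lay at 1172877 to 1173164, with 3.16 in dnmt1 mt– and 2.77 in WT mt+. Both crossed pairs together had 13 regions on chromosome 15, of which 8 lay beyond the first 150 kb. In the whole series 76 regions had a crossed pattern, or 0.490% of all regions.

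Regions that followed mating type were fewer than the crossed ones on this chromosome, at shares within the range of the other chromosomes. The mt+ pattern made up 0.172% of its regions, against 0 to 0.327% on the others. The mt– pattern made up 0.343%, against a median of 0.433% and a highest value of 4.98% on chromosome 6. A peak in the mt+ libraries and in no mt– library was found once, at 5528032 to 5528305, with 1.95 in dnmt1 mt+ and 2.23 in WT mt+ (0.193% of all regions had this pattern). A peak in both mt– libraries alone was found at 3444261 to 3444534, with 1.93 in dnmt1 mt– and 1.97 in WT mt–. The other was at 5231268 to 5231578, with 1.68 in dnmt1 mt– and 1.98 in WT mt– (0.812% of all regions had this pattern). Strain and mating type cannot be told apart in these libraries.

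Regions missing from a single list most often lacked the WT mt+ peak. There were 12 of these (2.06%, against 0.380% of all regions), and 10 of them lay in the stretch between the first and last gained region. Their fold enrichment was 1.66 to 2.89 in dnmt1 mt+, 1.84 to 3.44 in dnmt1 mt– and 1.5 to 2.67 in WT mt–. In comparison, 8 regions lacked only dnmt1 mt+ (1.37% of the chromosome, against 1.04% of all regions). Another 4 lacked only WT mt– (0.686%, against 0.477%), and 2 lacked only dnmt1 mt– (0.343%, against 0.193%). Regions found in a single list numbered 1 in dnmt1 mt+ (0.172%, against 0.251% of all regions) and 11 in WT mt+ (1.89%, against 0.554%). There were 8 in dnmt1 mt– (1.37%, against 0.992%) and 8 in WT mt– (1.37%, against 0.734%). These single-list regions were 211 to 592 bp wide, and 26 of the 28 had a fold enrichment under 3. The strongest, in WT mt– alone at 1996961 to 1997552, had a value of 5.0 and stood at the 35.8th percentile of its list.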

How the data were processed

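H3K27ac chromatin immunoprecipitation and sequencing was performed on vegetative Chlamydomonas reinhardtii cells fixed with formaldehyde and sonicated, 1 library for each genotype of each strain, per the labels. The input control was shared with another histone mark, per the labels, which do not say which input belongs to which library. Peaks came from MACS2 2.2.7.1, and Bowtie2 2.4.2, deepTools 3.5.1, Picard and Trim Galore 0.6.7 were also used, per the submitters' processing notes. The build, the options of the caller and the handling of reads with several alignments were not given in the sources used here. The set3 strains named in the study's design are not analysed here.

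The deposited lists give each peak's interval, an integer score, the fold enrichment at its summit (a ratio over the control), −log10 p, −log10 q and the summit offset, all from the authors' peak caller and called per library. Fold and −log10 q are the authors' values, and −log10 q is used here to rank peaks within a list. Fold values of different lists are set side by side as description only. The lists were called separately, and differences in depth or input between libraries were not accounted for. The lists hold no read counts, and depth is unknown. Within every list no interval was repeated, and the lowest −log10 q was 2.01 to 2.17.

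Peaks of the 4 lists were merged where they overlapped by at least 1 bp, and a region's class is the set of libraries whose peaks it holds. A region's fold in a library is that of its most enriched peak. Gained regions had dnmt1 peaks in both strains and no WT peak, and lost regions the reverse. Per strain, a peak was gained or lost when it overlapped no peak of the other genotype. Gaps and spacings are distances between neighbouring regions, spans run from the first region to the last, and coordinates are 1-based in the build of the lists. Percentiles are ranks by −log10 q within a list. With 1 library per group there is no test. Intervals are exact Clopper-Pearson 95% intervals over regions or peaks and cover counting error only. Neighbouring peaks share a library and are not independent.

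The regions named are all gained and lost regions, those of the mating type and crossed patterns (of a pattern with over 10 regions the 5 most enriched), and the shared regions with the 5 highest fold values and the 5 largest and smallest widths. The 5 longest gaps, the richest and poorest window and the outermost regions are named too. Others, such as the region near 137123 and the strongest single-library region, were chosen after their values were seen. The chromosome, the rules and the width minimum of broad regions were chosen with earlier results of these data known. Alternatives were a minimum −log10 q of 10, a 50% overlap, lists cut to the length of the shortest, unshared peaks above the median of their list, single lists, shared regions alone, merging within 500 bp and gap minimums of 20 and 100 kb. Scripts were tested on simulated data and ran under Python 3.11.15, pandas 2.3.3, numpy 2.4.6, scipy 1.17.1 and matplotlib 3.10.9.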

Additional observations from a re-analysis of the deposited data

Results flagged for a closer look

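Regions of chromosome 15 in which dnmt1 and WT differed in opposite directions in the 2 strains stand out, because every library of a strain goes against the same genotype in the other. At the start of the chromosome 5 regions had a peak in dnmt1 mt+ and not in WT mt+, and no peak in dnmt1 mt– against a peak in WT mt–. A further 1 region of this pattern lay at 4592740 to 4593054. The opposite pattern, a peak in dnmt1 mt– and in WT mt+ alone, was found in 7 regions. With 1 library per group the difference between strains was not tested. The fold enrichment and width of the shared regions between the first 5 differ between the same pairs of libraries, whereas their spacing is alike in all 4, and the part of these differences in the pattern was not tested.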

How the results depend on the processing

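No fit with strain as a block was made. Each group has 1 library, and a list gives no value in a region where it has no peak. The labels carry no replicate numbers. The genotypes are set side by side within each strain in the report. Of 65 alternative values over 13 results, 50 stayed within 1.5 times the value reported, or, for the percentage shared by all, within its interval. The share in all 4 libraries was 84.3% to 84.95% over the alternatives run, the density 84.7 to 127.2 regions per Mb, and the median spacing 4700 to 5666 bp. For density, the bound of 1.5 times does not test the rank of chromosome 15. It is wider than the step from chromosome 15 (100.2 regions per Mb) to chromosome 4 (125.7). At 127.2, without the long gaps, chromosome 15 passed chromosome 4. The rank was also computed in each list alone, but not for the other density alternatives. The counts that moved were these. When a region counted only if each of its peaks ranked above the median of its own list by −log10 q, with the other lists kept whole, 0 gained, 0 lost, 0 crossed, 0 mt+ and 0 mt– regions were found. Of single peaks held to the same bound, 0 in dnmt1 mt+ and 1 in dnmt1 mt– were gained, and 0 were lost in either strain. A minimum −log10 q of 10 gave 3 lost regions and 0 mt+ regions, and lists of equal length gave 0 mt– regions. Crossed regions beyond the first 150 kb numbered 8 (an alternative chosen after seeing the data, as were the span without long gaps and the spacing outside the broad stretch). Gaps of at least 20 kb numbered 50, and those of at least 100 kb numbered 3. The gap minimum of 20 kb admits more distances and the other settings admit fewer peaks, regions or distances, and the cause of these changes was not tested. Peak lists without counts do not show acetylation below the calling threshold, and a gap can also be sequence to which reads were not aligned, which these lists cannot tell apart.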
